A study of Mus musculus with 7 samples.

Results

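Integrins are the paired alpha and beta subunits through which a cell holds on to its matrix, and focal adhesions are the protein plaques that form where integrins are engaged. The genes described here were chosen by name: every integrin alpha or beta subunit in the count table, plus the talins, kindlins, vinculin, paxillin, the kinases FAK and Src, the ILK-PINCH-parvin complex, p130Cas and the tensins. They made up 37 of the 55228 rows of the table, with 13 alpha subunits, 8 beta subunits and 16 adaptors and kinases. Of the 37, 34 passed the filter on low counts and were tested. Itgb6, Itgb7 and Fermt1 did not pass it, with highest counts in a library of 6, 20 and 3. The samples were primary granulosa cells, the somatic cells around the oocyte, from the ovary of untreated C57BL/6J mice, either wild type (WT, 4 libraries) or labelled as knockout of Fhl2 (Fhl2 KO, 3 libraries). The product of Fhl2, built of LIM domains, binds integrin tails, transcription factors and actin-linked proteins. The design text of the series speaks of 5 samples while 7 are listed, and all 7 were used as labelled. The sources used here do not give the knockout allele, the age of the mice or the number of animals per library. What the p-values measure is thus the spread among these samples, and that spread may be technical.

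An integrin heterodimer binds a matrix protein outside the cell, and its ligand is set mainly by the alpha subunit: some bind the RGD motif of fibronectin and vitronectin, others collagens or laminins. Inside the cell, talin and kindlin bind the beta tail and switch the receptor on, vinculin reinforces the link from talin to actin, and FAK, Src, paxillin and p130Cas pass the signal on. ILK, PINCH and parvin form a further bridge to actin, and tensins bind beta tails in mature adhesions. Granulosa cells rest on the laminin-rich basal lamina of the follicle and grow on added or secreted matrix in culture.

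The libraries held 38855596 to 50514556 counts, and levels are CPM, the count scaled by library size with the TMM method. A count of 3 corresponds to 0.0598 to 0.0775 CPM, a floor that covers counting error only. Fhl2 itself stood at 101, 114, 106 and 109.9 CPM in WT libraries 1 to 4 against 47.9, 66.8 and 60.4 CPM across KO libraries 1 to 3, so the KO libraries were all lower but kept 54.1% of the WT level (log2 fold change -0.88, SE 0.107, edgeR adjusted p = 3.29e-05). The KO libraries also differed from WT in how level depended on transcript length. The slope of log2 CPM per doubling of length was 0.0581 to 0.0855 in WT and -0.00163, -0.17 and -0.133 in KO libraries 1, 2 and 3. The genes of the adhesion set are long, with a median transcript of 4915 bases among the 34 tested, against 3123 over all genes tested. Changes are therefore also given after their length and GC dependence was corrected for and, where it matters, with KO library 1 alone against WT. The part of the length difference in the results was not tested beyond these values. In bulk RNA, fewer cells of a type and less RNA per cell cannot be told apart.

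Of the 19 integrin transcripts tested, 9 were lower in the Fhl2 KO cells and none was higher, while the intracellular adaptors were mixed. Over the 34 genes tested, 12 fell, 1 rose and 21 did not pass an adjusted p of 0.05 (edgeR quasi-likelihood test, Benjamini-Hochberg adjusted over 15798 genes). Over all genes tested, 15.6% fell and 13.5% rose. The integrins that fell were Itgav, Itga8, Itga1, Itga2, Itga3, Itga7, Itga9, Itgb3 and Itgb8. Of the 15 adaptors and kinases tested, Tns1, Fermt2 and Parva fell and Parvb rose.

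The median log2 fold change was -0.52 over the integrins and -0.19 over the adaptors, against 0.00 over all genes. Whether the integrins and the adaptors differed was not tested. No integrin rose in edgeR, DESeq2 or limma voom, and none was higher at an unadjusted p under 0.05 in any of the 3 tools. Under the length correction alone Itgb4 was called higher, and with KO library 1 alone its log2 fold change was 0.94. In 14 of the 34 every KO library lay below every WT library, and in 3 every KO library lay above (17.7% and 16.4% of all genes). With the length and GC correction 9 fell and 2 rose, against 11.3% and 12.2% of all genes, and the medians became -0.35 over the integrins and 0.01 over the adaptors. With KO library 1 alone these medians were -0.23 and -0.02. With KO library 1 alone, 5 were lower, against 2.97% of all genes in the same comparison: Itgav, Itgb3, Itga1, Itga3 and Tns1. None was higher at adjusted p 0.05 in that comparison, where 1.63% of all genes were, and 3 were at an unadjusted p under 0.05. Of the 13 genes called, Itgav, Itgb3, Itga1, Itga3 and Tns1 kept their call and direction under all 19 alternative settings. These settings include KO library 1 alone, so no gene without a call there could be kept.

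**Figure D1:**
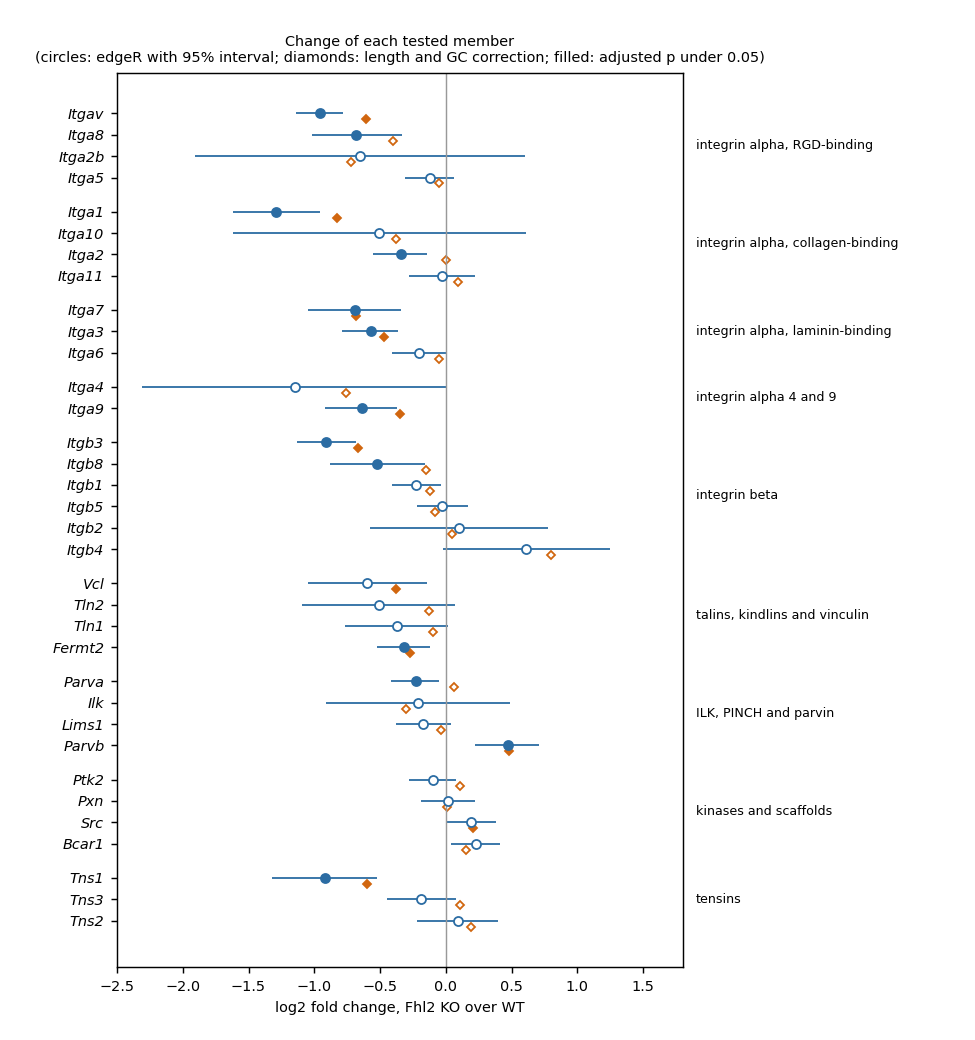
Log2 fold change of Fhl2 KO over WT (x axis) for the 34 tested genes, grouped by role (y axis); circles with bars give the edgeR estimate with its 95% interval, diamonds the estimate after correction for transcript length and GC content, and filled symbols an adjusted p under 0.05. Most alpha subunits lie left of 0, Parvb is the only filled circle on the right, and the diamonds lie closer to 0 than the circles for long genes such as Itgav and Tns1.

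The promoters of 3 of these genes are shown because their transcripts gave 3 different outcomes: Itgav fell to a like level in all KO libraries, Itgb1 narrowly missed the threshold and Vcl varied between KO libraries. The series names YAP signalling, and YAP acts through TEAD factors, which bind the MCAT element, searched here as CATTCC on both strands. FHL2 is also a cofactor of SRF, which binds the CArG box. The windows are the 250 bases upstream of the RefSeq start on GRCm38.p6, each on the plus strand, at chr2:83724147-83724396 for Itgav, chr8:128685404-128685653 for Itgb1 and chr14:20929148-20929397 for Vcl. Capitals mark a match to either motif on either strand.
Itgav: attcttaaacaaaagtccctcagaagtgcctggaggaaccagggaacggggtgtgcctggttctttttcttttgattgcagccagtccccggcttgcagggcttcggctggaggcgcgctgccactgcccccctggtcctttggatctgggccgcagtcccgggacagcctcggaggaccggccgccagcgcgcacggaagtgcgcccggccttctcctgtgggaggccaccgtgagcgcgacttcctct
Itgb1: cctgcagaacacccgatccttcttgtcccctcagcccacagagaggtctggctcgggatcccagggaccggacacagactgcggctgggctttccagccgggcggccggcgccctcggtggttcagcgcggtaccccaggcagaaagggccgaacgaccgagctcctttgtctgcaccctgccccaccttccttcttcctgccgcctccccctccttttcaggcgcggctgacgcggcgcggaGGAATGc
Vcl: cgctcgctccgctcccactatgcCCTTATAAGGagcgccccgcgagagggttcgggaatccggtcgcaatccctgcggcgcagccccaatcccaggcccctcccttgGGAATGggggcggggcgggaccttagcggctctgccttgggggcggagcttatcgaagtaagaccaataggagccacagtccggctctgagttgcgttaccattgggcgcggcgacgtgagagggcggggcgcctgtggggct
The Itgb1 window holds an MCAT match close to the start, the Vcl window holds a CArG box and an MCAT match, and the Itgav window holds neither. Of the 37 genes, 28 had a window in the RefSeq table. An MCAT match was found for 3 of them (Itga10, Itgb1 and Vcl) and a CArG box for 3 (Fermt2, Itgb6 and Vcl). Counted by window, 3 of their 34 windows held MCAT and 3 held CArG. Over all 32851 windows of this length, 12.6% held MCAT and 1.47% held CArG. Of the 9 lower genes with a window, 0 had MCAT and 1 had CArG. A match is a description of the letters, and its absence says nothing about binding elsewhere.

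Among the alpha subunits that bind RGD ligands, Itgav and Itga8 fell and Itga5 and Itga2b did not pass. Itgav, the alpha v subunit of the vitronectin and fibronectin receptors, lies at chr2:83724397-83806916 (plus strand) on mm10. Itgav stood at 209, 201, 207 and 206 CPM across WT libraries 1 to 4, against 103, 111 and 103 CPM across KO libraries 1 to 3. The KO libraries were all near 51.4% of the WT mean, with no overlap between the groups. Itgav had a log2 fold change of -0.96 (SE 0.0846, adjusted p = 9.58e-07), or -0.61 (adjusted p = 0.000177) after the length and GC correction. With KO library 1 alone the log2 fold change was -1.0. Itga8, which pairs with beta 1 and binds nephronectin, stood at 5.55, 5.08, 5.58 and 5.31 CPM across WT libraries 1 to 4, against 3.90, 2.64 and 3.58 CPM across KO libraries 1 to 3. All KO libraries were below all WT libraries, KO library 2 being lowest. For Itga8 the log2 fold change was -0.68 (SE 0.164, adjusted p = 0.00696), and it missed the threshold after the correction at -0.40 (adjusted p = 0.0582); adjusted p over the alternatives ran from 0.0016 to 0.232.

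Itga5, the alpha subunit of the main fibronectin receptor, stood at 118, 110.3, 99.6 and 107 CPM across WT libraries 1 to 4, against 98.9, 98.0 and 103 CPM across KO libraries 1 to 3. KO library 3 lay inside the WT range, and the fold change was -0.12 (SE 0.0877, 95% interval -0.31 to 0.06, adjusted p = 0.309). The interval of Itga5 did not overlap that of Itgav, -1.14 to -0.78, but the difference between these 2 genes was not tested. Itga2b, the platelet subunit, had 4 to 29 counts per library and a log2 fold change of -0.65 (adjusted p = 0.441). The platelet markers Ppbp, Gp9, Gp1bb and Gp6 were at 0 in all 7 libraries.

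**Figure D2:**
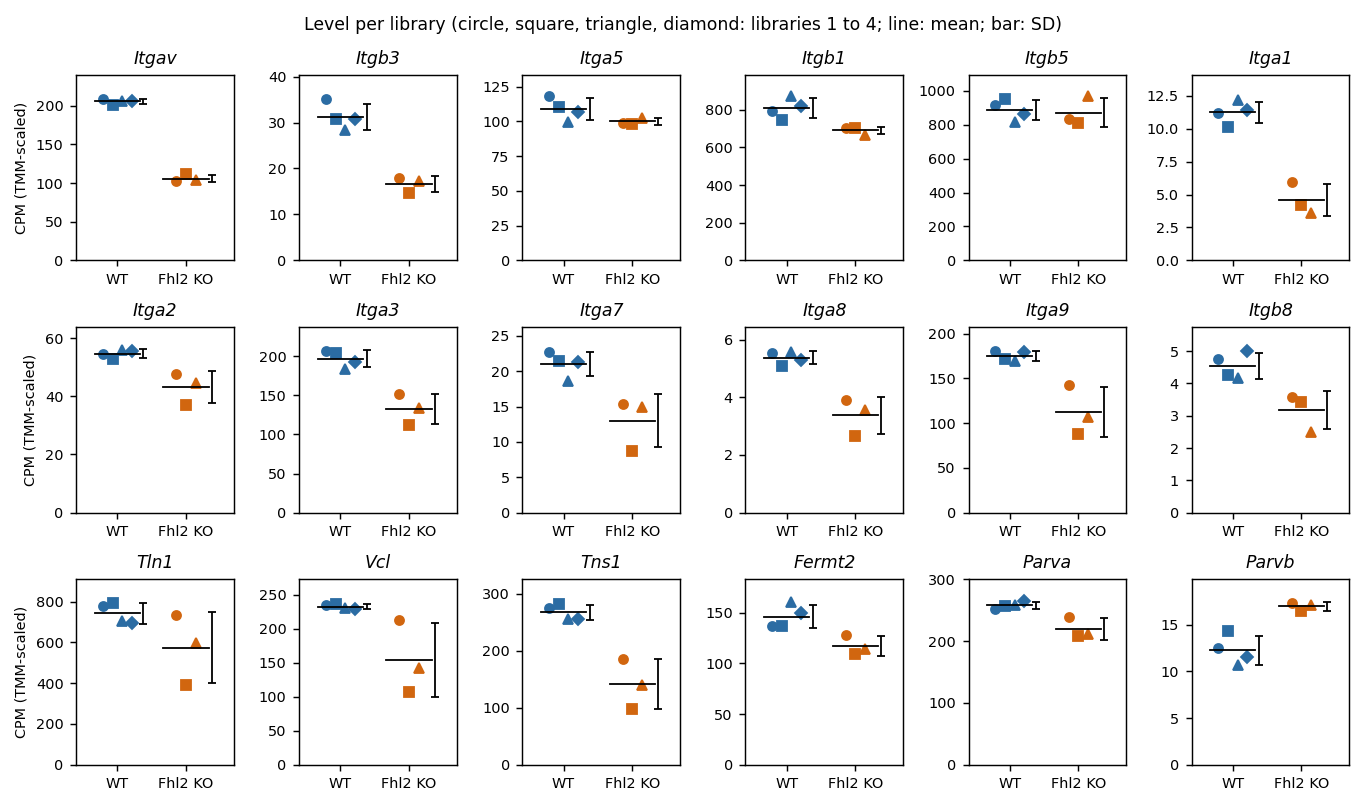
TMM-scaled CPM (y axis, from 0) of 18 genes in each WT and Fhl2 KO library (x axis); symbols give the library number, lines the group mean and bars the SD. Itgav and Itgb3 form tight, separate groups, whereas Tln1, Vcl and Tns1 spread widely among the KO libraries with library 1 highest.

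Of the collagen-binding subunits, Itga1 and Itga2 fell, and Itga10 and Itga11 did not pass. Itga1 pairs with beta 1 to bind collagen IV and I, and lies at chr13:114953096-115101964 (minus strand). Itga1 stood at 11.2, 10.2, 12.2 and 11.4 CPM across WT libraries 1 to 4, against 5.96, 4.24 and 3.62 CPM across KO libraries 1 to 3. It kept 41.0% of the WT level, the lowest share among the genes that passed, and the groups were far apart. The log2 fold change of Itga1 was -1.29 (SE 0.159, adjusted p = 3.92e-05), and -0.83 (adjusted p = 0.000288) after the length and GC correction. Of its exon bases, 3.68% are shared with the gene model Gm49395 on the same strand.

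Itga2, the other classic collagen receptor subunit, stood at 54.6, 52.7, 56.0 and 55.4 CPM across WT libraries 1 to 4, against 47.8, 37.0 and 44.6 CPM across KO libraries 1 to 3. All KO libraries lay below WT, by less than for Itga1, and the log2 fold change was -0.34 (SE 0.0985, adjusted p = 0.0164). This call was lost without KO library 2 (adjusted p = 0.104) or KO library 3 (0.054), and the correction brought the estimate to 0.00 (adjusted p = 0.977), with adjusted p from 0.00145 to 0.988 over the alternatives. Itga11, a fibrillar collagen receptor subunit of mesenchymal cells, was at 10.6 ± 0.546 CPM (SD, n = 4) in WT and 10.4 ± 1.09 (n = 3) in KO, with a log2 fold change of -0.03 (SE 0.119, 95% interval -0.28 to 0.22, adjusted p = 0.865). Itga10 had 6 to 32 counts per library and a log2 fold change of -0.51 (adjusted p = 0.506), and 33.53% of its exon bases lie in the gene model Gm42957 on the same strand.

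Both Itga3 and Itga7, which pair with beta 1 as laminin receptors, fell, and Itga6 did not pass. Itga3 stood at 206, 205, 183 and 193 CPM across WT libraries 1 to 4, against 151, 113 and 133 CPM across KO libraries 1 to 3. The groups did not overlap, and KO library 2 was lowest. Itga3 had a log2 fold change of -0.57 (SE 0.102, adjusted p = 0.00101), -0.47 (adjusted p = 0.000227) after the length and GC correction and -0.38 with KO library 1 alone. Itga7, best known from muscle, stood at 22.8, 21.5, 18.6 and 21.3 CPM across WT libraries 1 to 4, against 15.3, 8.70 and 15.0 CPM across KO libraries 1 to 3. KO library 2 was again the lowest and the other KO libraries were close together, all below WT. For Itga7 the log2 fold change was -0.69 (SE 0.167, adjusted p = 0.00909), and -0.68 (adjusted p = 0.00268) after the correction. KO library 1 alone gave -0.46, and the estimates over the alternatives ran from -0.81 to -0.46. Itga6, which pairs with beta 1 or beta 4, ran from 56.9 to 62.6 CPM in WT and was 58.7, 45.6 and 53.5 CPM across KO libraries 1 to 3, so that library 1 overlapped WT. Its log2 fold change was -0.20 (SE 0.0978, 95% interval -0.41 to 0.00, adjusted p = 0.125), and it passed without KO library 1 (adjusted p = 0.018), with an adjusted p of 0.018 to 0.857 over the alternatives.

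Itga9, a beta 1 partner that binds tenascin C and osteopontin, also fell. Itga9 stood at 181, 172, 169.6 and 179 CPM across WT libraries 1 to 4, against 143, 87.6 and 107 CPM across KO libraries 1 to 3. Every KO library was below WT, with library 1 nearest to it and library 2 farthest. Itga9 had a log2 fold change of -0.64 (SE 0.129, adjusted p = 0.00316), -0.35 (adjusted p = 0.00362) after the correction and -0.30 with KO library 1 alone. Its estimates over the alternatives ran from -0.83 to -0.30. Its leukocyte relative Itga4 had 6 to 28 counts per library and a log2 fold change of -1.15 (adjusted p = 0.125).

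The beta subunits changed less uniformly: Itgb3 and Itgb8 fell, and the most abundant, Itgb5 and Itgb1, did not pass. Itgb3, a partner of alpha v, lies at chr11:104608000-104670476 (plus strand). Itgb3 stood at 35.1, 30.7, 28.3 and 30.7 CPM across WT libraries 1 to 4, against 18.0, 14.7 and 17.2 CPM across KO libraries 1 to 3. The KO libraries were all near 53.4% of WT, a drop close in size to that of Itgav. The log2 fold change of Itgb3 was -0.91 (SE 0.108, adjusted p = 2.91e-05), -0.67 (adjusted p = 8.05e-05) after the correction and -0.80 with KO library 1 alone. Itgb8, an alpha v partner that activates latent TGF-beta, stood at 4.75, 4.26, 4.17 and 5.01 CPM across WT libraries 1 to 4, against 3.59, 3.43 and 2.50 CPM across KO libraries 1 to 3. KO library 3 was the lowest and no library overlapped, at low levels in both groups. For Itgb8 the log2 fold change was -0.52 (SE 0.172, adjusted p = 0.032). It missed the threshold without KO library 3 (adjusted p = 0.171), WT library 1 (0.0815) or WT library 4 (0.094) and after the correction at -0.15 (adjusted p = 0.546), and its p over the alternatives ran from 0.00652 to 0.726.

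Itgb1, the shared partner of most alpha subunits, stood at 796, 744, 871 and 818 CPM across WT libraries 1 to 4, against 701, 703 and 668 CPM across KO libraries 1 to 3. All KO libraries lay below all WT libraries, by a margin that did not pass: the log2 fold change was -0.23 (SE 0.0883, 95% interval -0.41 to -0.04, adjusted p = 0.0638). It passed in DESeq2 (adjusted p = 0.0321), in limma voom (0.0148) and in edgeR without KO library 1 (0.0269), with 0.0148 to 0.398 over the alternatives. Itgb5, an alpha v partner that binds vitronectin, stood at 915, 953, 819 and 862 CPM across WT libraries 1 to 4, against 834, 811 and 970.4 CPM across KO libraries 1 to 3. KO library 3 was the highest of the 7, and the log2 fold change was -0.03 (SE 0.0947, 95% interval -0.22 to 0.17, adjusted p = 0.871). Itgb4, the hemidesmosome subunit, had 23 to 67 counts per library and a log2 fold change of 0.61 (SE 0.303, 95% interval -0.02 to 1.25, adjusted p = 0.138). The length and GC correction gave Itgb4 0.80 (adjusted p = 0.0574) and the length correction 0.87 (adjusted p = 0.0421), with an adjusted p of 0.0421 to 0.33 over the alternatives. Itgb2, the leukocyte subunit, had 28 to 77 counts and a log2 fold change of 0.10 (adjusted p = 0.843). The untested Itgb6 and Itgb7, partners in epithelium and lymphocytes, had 0 to 6 and 0 to 20 counts.

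Levels can be compared between genes only per length, here as CPM per kilobase of exon (RPKM, mean ± SD, n = 4 WT). Among beta subunits Itgb5 (231 to 268) stood above Itgb1 (182 to 214), with no overlap between their WT libraries, and both stood far above Itgb3 (5.29 ± 0.480). Of the alpha subunits Itga3 led (34.5 ± 1.88), followed by Itga9 (22.8 ± 0.692) and Itga5 (22.1 ± 1.57), whose ranges overlapped, and by Itgav (19.2 ± 0.304). Below these came Itga2 (7.66 ± 0.201), Itga6 (6.71 ± 0.284), Itga7 (2.60 ± 0.217) and Itga11 (2.06 ± 0.106), then Itga8 (0.730 ± 0.0318) and Itga1 (0.604 ± 0.0445), with no overlap between other neighbours in this order. The place of Itgav depends on the length used: by its longest transcript it reached 29.2 RPKM in WT, above Itga9 at 25.0 and Itga5 at 24.6. The place of Itga6 moved likewise, to 14.1 RPKM, above Itga2 at 7.69, and Itga1, at 1.02, passed Itga8 at 0.926. In KO, Itga3 (23.2 ± 3.37) and Itga5 (20.2 ± 0.499) overlapped, Itga9 (14.6 ± 3.65) was below both, and Itgav (9.85 ± 0.426) was below Itga9.

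**Figure D3:**
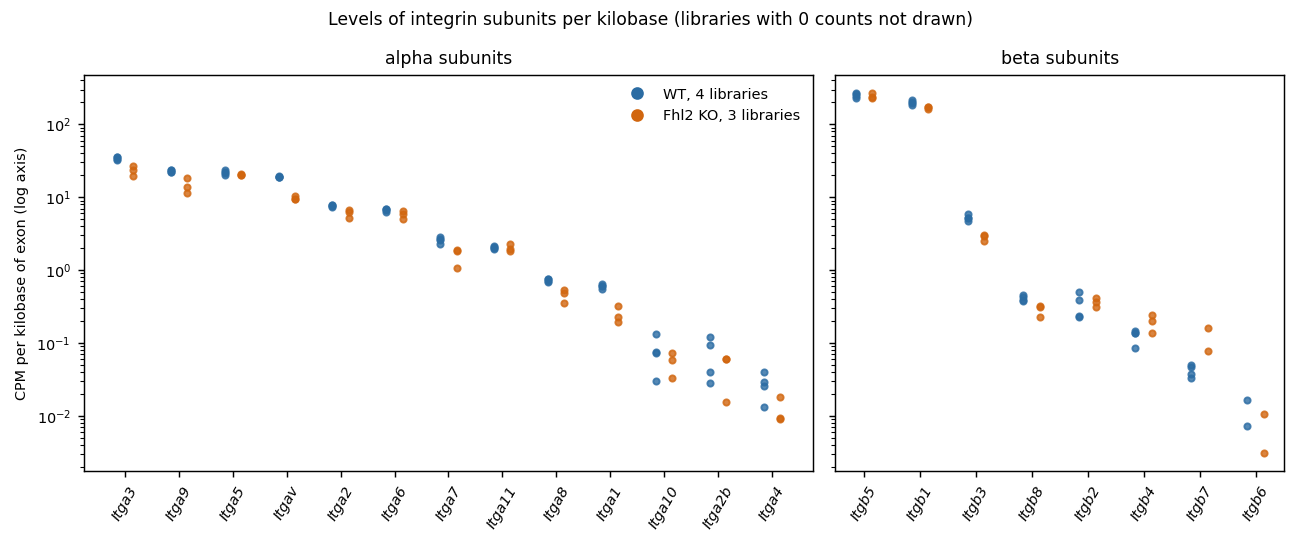
CPM per kilobase of exon (y axis, log scale) of each alpha and beta subunit (x axis, in order of WT level), with 1 point per library. Itgb5 and Itgb1 stand above all other subunits in both genotypes, and the Itgav, Itga1 and Itgb3 points of the KO libraries form groups clear of WT.

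The make-up of the alpha pool by level per kilobase differed between the libraries of the groups. The summed level of the 13 alpha subunits was 119 ± 3.71 RPKM in WT (n = 4) and 84.2 ± 8.96 in KO (n = 3), and that of the 8 beta subunits was 454 ± 5.11 and 418 ± 19.5. Itgav made up 15.6 to 16.8% of the alpha sum in WT and 10.3, 13.8 and 11.4% in KO libraries 1 to 3, below the WT range in each. Itga5 made up 17.7 to 19.4% in WT and 21.6, 26.4 and 24.6% in KO, above the WT range in each. Itga3 had the largest mean share, 29.0% in WT and 27.5% in KO, but in KO library 2 Itga5 held 26.4% and Itga3 26.3%. These shares are sums over the same values as the fold changes, they depend on the exon lengths used, and they were given no test. They describe RNA, not the receptors at the surface.

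**Figure D4:**
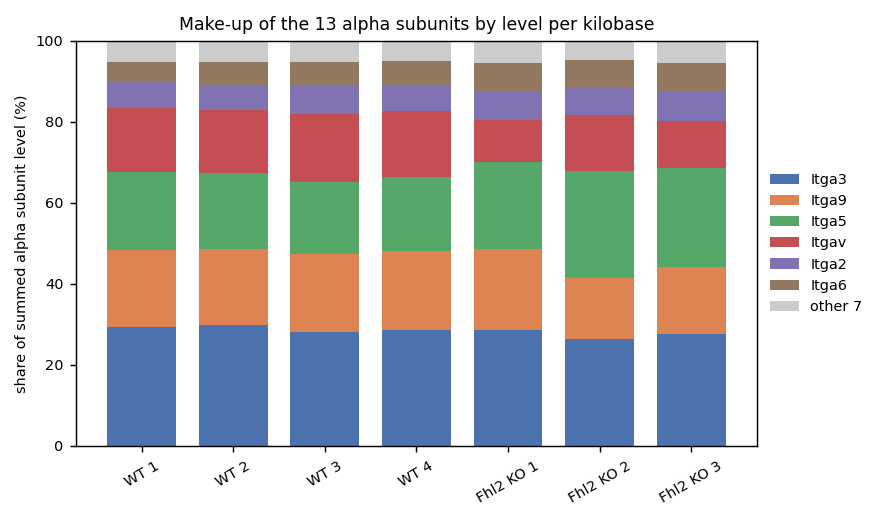
Share (%) of the summed alpha subunit level per kilobase (y axis) taken by each of the 6 most abundant alpha subunits and by the other 7 together, for every library (x axis). The Itgav band is narrower and the Itga5 band wider in each KO library than in any WT library.

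Among the proteins that activate integrins and couple them to actin, Fermt2 fell, and vinculin and the talins did not pass. Fermt2 encodes kindlin-2, the kindlin of adherent non-blood cells, and stood at 137, 136, 161 and 149.9 CPM across WT libraries 1 to 4, against 128, 109 and 114 CPM across KO libraries 1 to 3. No library overlapped, and the fold change was -0.32 (SE 0.0943, adjusted p = 0.0188) on the log2 scale, -0.27 (adjusted p = 0.013) after the correction. The call was lost without KO library 2 (adjusted p = 0.0778), KO library 3 (0.0863), WT library 3 (0.0662) or WT library 4 (0.061). With KO library 1 alone the log2 fold change of Fermt2 was -0.19, and over the alternatives it ran from -0.37 to -0.19.

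Vcl, which encodes vinculin, lies at chr14:20929398-21033676 (plus strand), and 25.52% of its exon bases overlap exons of Ap3m1 on the other strand. Vcl stood at 234, 237, 230.0 and 229 CPM across WT libraries 1 to 4, against 213, 107 and 142 CPM across KO libraries 1 to 3. KO library 1 was just below WT and libraries 2 and 3 far below, at 45.9% and 61.1% of the WT mean. The log2 fold change of Vcl was -0.60 (SE 0.199, 95% interval -1.05 to -0.14, adjusted p = 0.0544). It passed in DESeq2 (adjusted p = 0.0475), without KO library 1 (3.39e-06), without KO library 2 (0.0284) and after the correction (-0.38, adjusted p = 0.0456). It also passed in limma voom, without the filter on low counts and with the replicate number as a block. KO library 1 alone gave -0.13, and the estimates over the alternatives ran from -0.88 to -0.13.

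Tln1, the ubiquitous talin, stood at 781, 792, 704 and 694 CPM across WT libraries 1 to 4, against 734, 389 and 596 CPM across KO libraries 1 to 3. KO library 1 lay inside the WT range, and the log2 fold change was -0.37 (SE 0.178, 95% interval -0.77 to 0.02, adjusted p = 0.144), or -0.10 (adjusted p = 0.465) after the correction. Tln2, the talin with the longest transcript of the set, stood at 25.0, 29.7, 24.6 and 24.7 CPM across WT libraries 1 to 4, against 26.4, 11.5 and 16.9 CPM across KO libraries 1 to 3. Its KO library 1 also lay inside the WT range and library 2 at 44.2% of the WT mean, for a log2 fold change of -0.51 (SE 0.250, 95% interval -1.09 to 0.07, adjusted p = 0.166), or -0.13 (adjusted p = 0.471) after the correction. Without KO library 1 both talins passed (adjusted p = 0.0117 and 0.000144). Both also passed in limma voom, without the filter on low counts and with the replicate number as a block, and Tln1 passed in DESeq2. The estimates over the alternatives ran from -0.57 to -0.02 for Tln1 and from -0.85 to 0.02 for Tln2. With KO library 1 alone Tln1 gave -0.02 and Tln2 0.02.

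In the ILK-PINCH-parvin complex Parvb rose, and Parva was called lower at the threshold with a sign that turned under the length and GC correction. Parvb, beta-parvin, lies at chr15:84232043-84315688 (plus strand) and was the 1 gene of the set that rose. Parvb stood at 12.5, 14.4, 10.7 and 11.6 CPM across WT libraries 1 to 4, against 17.3, 16.4 and 17.2 CPM across KO libraries 1 to 3. All KO libraries were above all WT libraries and close to each other, at 141%, 134% and 140% of the WT mean. The log2 fold change of Parvb was 0.47 (SE 0.116, adjusted p = 0.00787) and 0.48 (adjusted p = 0.0027) after the correction. KO library 1 alone gave 0.49, and the estimates over the alternatives ran from 0.40 to 0.56. Parva, alpha-parvin, stood at 253, 257, 258 and 265 CPM across WT libraries 1 to 4, against 239.6, 208 and 211 CPM across KO libraries 1 to 3. The groups did not overlap, and the log2 fold change of -0.23 (SE 0.0867) sat at the threshold, with an adjusted p just under 0.05. That call was lost when any 1 library other than KO library 1 was left out, with adjusted p of 0.186 and 0.17 without KO libraries 2 and 3 and 0.118, 0.101, 0.0947 and 0.141 without WT libraries 1 to 4. The correction gave Parva 0.06 (adjusted p = 0.526), a change of sign, with adjusted p of 0.00302 to 0.891 over the alternatives.

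Lims1, which encodes PINCH1, was at 60.8 ± 4.86 CPM in WT (SD, n = 4) and 54.1 ± 5.73 in KO (n = 3), with overlapping libraries and a log2 fold change of -0.17 (SE 0.0989, 95% interval -0.38 to 0.04, adjusted p = 0.215). Ilk, the pseudokinase at the centre of the complex, had only 26 to 47 counts per library and a log2 fold change of -0.21 (adjusted p = 0.679). Of the exon bases of Ilk, 89.69% overlap exons of Taf10 and Rrp8 on the other strand, and the sources used here give neither the strand setting nor the rule for shared reads. The count of Ilk cannot be read as its level.

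None of the 4 kinases and scaffolds passed the edgeR test, and 2 of them, Bcar1 and Src, were higher at an unadjusted p under 0.05. DESeq2 called 1 of the 4 and limma voom called 2. Bcar1, which encodes the scaffold p130Cas, stood at 270.1, 286, 266 and 284 CPM across WT libraries 1 to 4, against 336, 289 and 345 CPM across KO libraries 1 to 3. The KO libraries were all above WT, KO library 2 only just, and the log2 fold change was 0.23 (SE 0.0894, 95% interval 0.04 to 0.41, adjusted p = 0.0655). It passed without KO library 1 (adjusted p = 0.0333) or KO library 2 (0.0268), out of 0.018 to 0.247 over the alternatives. Src, the kinase that docks on FAK, stood at 53.0, 53.1, 48.5 and 51.8 CPM across WT libraries 1 to 4, against 57.6, 56.1 and 63.3 CPM across KO libraries 1 to 3. Its KO libraries were also all above WT, for a log2 fold change of 0.19 (SE 0.0887, 95% interval 0.01 to 0.38, adjusted p = 0.109). Without KO library 1 Src passed (adjusted p = 0.0336), and after the correction it gave 0.21 (adjusted p = 0.0324), with an adjusted p of 0.0274 to 0.451 over the alternatives. Ptk2, which encodes FAK, and Pxn, paxillin, overlapped between groups, with log2 fold changes of -0.10 (SE 0.0847, 95% interval -0.28 to 0.08, adjusted p = 0.418) and 0.02 (SE 0.0984, 95% interval -0.19 to 0.22, adjusted p = 0.917).

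Of the tensins Tns1 fell, and Tns2 and Tns3 did not pass. Tns1 links beta tails to actin in fibrillar adhesions and lies at chr1:73910231-74124449 (minus strand). Tns1 stood at 275, 282, 256 and 255 CPM across WT libraries 1 to 4, against 185, 97.5 and 139.8 CPM across KO libraries 1 to 3. Every KO library was below WT, but they ranged from 36.5% to 69.4% of its mean. Tns1 had a log2 fold change of -0.92 (SE 0.179, adjusted p = 0.00549), -0.60 (adjusted p = 0.000173) after the correction and -0.53 with KO library 1 alone. Tns3 ran from 170.3 to 184.5 CPM in WT and was 195, 122 and 151 CPM across KO libraries 1 to 3, on both sides of WT, with a log2 fold change of -0.19 (SE 0.124, 95% interval -0.45 to 0.08, adjusted p = 0.277). Without KO library 1 Tns3 passed (adjusted p = 0.00273), out of 0.00273 to 0.883 over the alternatives, and after the correction its sign turned, to 0.11 (adjusted p = 0.259). Tns2 was at 4.84 ± 0.498 CPM in WT and 5.16 ± 0.356 in KO, with a log2 fold change of 0.09 (SE 0.147, 95% interval -0.22 to 0.40, adjusted p = 0.69).

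The KO libraries themselves did not move these genes equally. Itgav, Itgb3 and Parvb differed from WT by much the same amount in each KO library. Itgav stood at 50.1%, 54.0% and 50.2% of the WT mean in KO libraries 1 to 3, and Itgb3 at 57.6%, 47.2% and 55.3%. Tln1, Vcl and Tns1 did not: Tln1 stood at 98.9%, 52.4% and 80.2%, Vcl at 91.6%, 45.9% and 61.1%, and Tns1 at 69.4%, 36.5% and 52.3%. Their order, with library 1 highest and library 2 lowest, is also the order of the length slopes of the KO libraries. Among the other genes that fell, Fermt2, Itga7, Itga3, Itgb3, Itga8, Parva, Itga9 and Itga2 had this order too. Their longest transcripts have 3293 to 7108 bases. Itgav, Itgb8 and Itga1, at 7054, 8403 and 10967 bases, did not have it. Tln2 and Tns3, which did not pass, had it, at 12132 and 7483 bases. The longest transcripts of Vcl, Tln1 and Tns1 have 5267, 8393 and 9966 bases, against 7054 for Itgav, 5784 for Itgb3 and 3784 for Parvb. The 12 genes that fell had a median transcript of 6444 bases, against 4415 for the 21 that did not pass. The part of transcript length in these per-library differences was not tested.

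**Figure D5:**
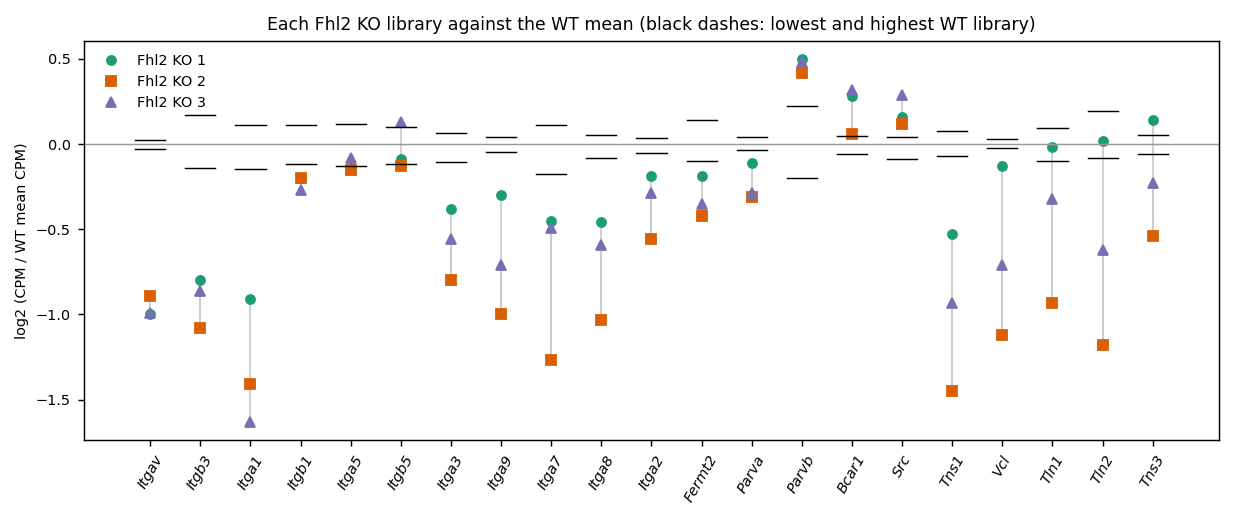
Log2 ratio of each Fhl2 KO library to the WT mean (y axis) for 21 genes (x axis), with black dashes at the lowest and highest WT library. The 3 KO libraries coincide for Itgav and Parvb and fan out, with library 1 on top, for Tns1, Vcl, Tln1, Tln2 and Tns3.

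Most of the tested integrin ligands, mainly matrix proteins, were lower in KO. The list also holds the cell-surface proteins Vcam1, Madcam1 and Icam1 and the growth factors Tgfb1 and Tgfb3. Of 33 tested of 36 listed ligands, 21 fell, 2 rose and 10 did not pass, against 15.6% lower and 13.5% higher over all genes. Their median log2 fold change was -0.60. After the correction 20 fell and 1 was called higher, against 11.3% and 12.2% of all genes. That 1 was Lamb2, a laminin chain (0.18, adjusted p = 0.0446, against 0.01 and 0.934 without the correction). The fibrillar collagen genes Col1a1 (-1.57, adjusted p = 9.43e-08), Col3a1 (-1.50, 1.81e-07) and Col1a2 (-1.72, 5.04e-06) and the RGD protein Fbln5 (-0.73, 3.92e-05) had the smallest p. The 2 that rose were Spp1, osteopontin (0.62, adjusted p = 0.0198), and Ccn2, a YAP target and integrin ligand (0.38, 0.0495), and the libraries of both overlapped between groups. Neither passed after the correction (adjusted p = 0.0879 for Spp1 and 0.0895 for Ccn2). Spp1 missed the threshold without KO library 2 (adjusted p = 0.0831) or WT library 3 (0.0619), with 0.00266 to 0.147 over the alternatives. Ccn2 missed it without KO library 2 (0.16), KO library 3 (0.142) or WT libraries 1 (0.101), 2 (0.083) or 3 (0.13), with 0.00117 to 0.823 over the alternatives.

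Other genes of the adhesion plaque went both ways: 16 of 44 fell, 7 rose and 21 did not pass, with a median of -0.15, against 15.6% lower and 13.5% higher over all genes. After the correction 12 fell and 6 rose, against 11.3% and 12.2% of all genes. The median was then -0.08, and with KO library 1 alone it was -0.11. Enah was called lower without the correction (-0.28, adjusted p = 0.046) and higher with it (0.19, 0.0366). The p130Cas relative Nedd9 (-0.70, adjusted p = 1.54e-04), the actin crosslinker Actn1 (-0.93, 2.94e-04) and the PDZ-LIM gene Pdlim5 (-0.47, 0.0012) fell. Tns4, a tensin that lacks the actin-binding part, rose (1.00, adjusted p = 0.000949), opposite to Tns1. Among 28 regulators of integrin activity or traffic, 8 rose, 3 fell and 17 did not pass, against 13.5% higher and 15.6% lower over all genes. Itgbl1, a secreted integrin-like protein (-2.64, 7.71e-05), the endocytic adaptor Dab2 (-0.44, 0.004) and the surface protein Thy1 (-0.70, 0.00571) fell, and Sharpin, an inhibitor of integrin activation, rose (0.54, 0.00474). With the correction 3 of the regulators rose and 3 fell, against 12.2% and 11.3% of all genes. Of 8 further leukocyte genes, Itgal, Itgam and Fermt3 among them, 3 were tested and 0 passed in edgeR, DESeq2 or limma voom, with 1 lower at an unadjusted p under 0.05 in each.

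Markers of granulosa and other cell types were measured beside these genes. Their counts stand against 15.6% lower and 13.5% higher over all genes tested. Of 8 fibroblast and stroma markers 7 were tested, and 5 fell: their summed level was 377 to 441 CPM in WT and 122 to 172 in KO, most of it the collagens named above. The 5 were Col1a1, Col1a2, Col3a1, Col15a1 and Pdgfra, while the stromal gene Dcn, with 21 to 41 counts per library, overlapped between groups and did not pass (0.42, adjusted p = 0.421). Of 8 smooth muscle and pericyte markers 7 were tested and 4 fell, from 885 to 978 CPM to 468 to 546, mostly Acta2, while Rgs5 was at 0 in all libraries. Endothelial markers summed to 4.06 to 4.85 CPM in WT and 4.17 to 4.69 in KO, and leukocyte markers to 21.4 to 22.9 and 20.5 to 25.6. None of the tested members of these last 2 lists passed in edgeR, DESeq2 or limma voom, and none did at an unadjusted p under 0.05. Of 8 granulosa markers 7 were tested, 3 rose and 2 fell. Their sums were 1340 to 1520 CPM in WT and 1950 to 2230 in KO, mostly Inha. Inha (0.71, adjusted p = 4.96e-05), Nr5a1 (0.35, 0.0106) and Fshr (0.47, 0.0477) rose, and Foxl2 (-0.42, 0.00793) and Amh (-1.06, 0.0104) fell. After the length and GC correction Fshr missed the threshold (adjusted p = 0.0801) and Hsd17b1 was called lower (-0.28, 0.00803). Surface epithelium markers rose in 4 of 8, from 139 to 154 CPM to 161 to 206. Lung markers, 0.128 to 0.618 CPM in WT, reached 11.2, 25.8 and 1.25 CPM in KO libraries 1 to 3, with 2 of 3 tested higher. The part of these marker lists in the integrin results was not tested.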

How the data were processed

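Read counts per gene were used for 4 WT and 3 Fhl2 KO libraries of primary mouse granulosa cells, grouped by their labels. Per the labels' protocols, RNA was extracted with TRIzol and made into stranded mRNA libraries. The deposited values were whole-number read counts per gene symbol, not normalized by the authors. Build mm10 and the tools HISAT2 2.2.1, featureCounts 1.6.4, SAMtools, fastp, DESeq2 1.28.1 and Cufflinks 2.2.1 are named in the submitters' processing notes, without their roles. The sources used here do not give the annotation release, the strand setting or the rule for shared reads. The table had 55228 rows, 25188 of them at 0 in all libraries, and 38855596 to 50514556 counts per library.

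The main test was the quasi-likelihood test of edgeR 4.0.16 in R 4.3.3, with TMM scaling and robust estimation, on genes kept by filterByExpr at a minimum count of 10. Genotype was the model's single term, and p-values were adjusted by Benjamini-Hochberg over 15798 genes. The genes left out held 0.0511% of the counts. CPM were scaled by TMM, fold changes are KO over WT, and intervals are at 95%. RPKM is CPM per kilobase of the union of a gene's exons in GENCODE M21, in which 96.7% of the rows and all 37 genes had a unique symbol. Lengths and GC content were known for 98.6% of the genes tested. For the correction, natural splines with 4 degrees of freedom described how log2 CPM depended on length and GC in each library among genes over 1 CPM, and the fitted values were used as edgeR offsets. Promoter sequences came from RefSeq on GRCm38.p6.

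Values in every library are given for each gene of the set past adjusted p 0.05 and for Itgav, Itgb1, Itga5, Vcl and Tln1, and for some others chosen after their values were seen. From each other list up to 4 genes with the smallest p are named. Chosen after their values were seen were Spp1, Ccn2 and Lamb2 among the ligands and Enah among the plaque genes. So were Dcn and the lower genes among the stromal markers, and the granulosa markers named. The genes and lists were chosen with earlier results of these data known. Alternatives were DESeq2 1.42.0, limma 3.58.1 voom weighted by sample quality, DESeq2-type size factors, library totals, no count filter, at least 10 CPM in 3 libraries, the replicate number as a block, libraries 1 to 3 of each group, the corrections, KO library 1 alone, and each library left out in turn. Where 1 KO library stood alone, its variance was taken from the WT libraries. Simulated data were used to test the steps. No pair of libraries within a group held duplicated counts, with a chi-square per degree of freedom of at least 10.4. Pairs of a WT and a KO library were not examined.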

Additional observations from a re-analysis of the deposited data

Results flagged for a closer look

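Among 34 tested genes of the set, the 4 WT libraries were examined for 1 library apart from the others, and 2 such cases were found; chance gives about 1 in 20. Itgb4, the hemidesmosome beta subunit, stood at 0.594 CPM in WT library 1, against 0.956 to 1.03 CPM in the other WT libraries, and the gap took up 0.83 of the range. Tln2, the second talin, stood at 29.7 CPM in WT library 2, against 24.6 to 25.0 CPM in the other WT libraries. Its gap took up 0.914 of the range. Neither gene passed the test between genotypes.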

How the results depend on the processing

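The number of genes of the set that were lower, 12 of 34, was 8 to 18 under the alternatives other than KO library 1 alone, where it was 5. It was 9 with the length and GC correction and 8 with the length correction. Leaving out 1 library in turn gave 8 (without KO library 3) to 18 (without KO library 1) lower. The calls over all genes moved between settings too. They were 15.6% lower and 13.5% higher in the main test and 11.3% and 12.2% with the length and GC correction. Counts over all genes with a library left out are given below. The number higher, 1, became 2 in DESeq2, with library totals alone, with at least 10 CPM in 3 libraries and with the length and GC correction. It became 3 in voom and with the length correction, and 1 to 3 when 1 library was left out. The cause was not tested beyond what each setting's construction gives (fewer libraries, fewer genes or another offset). With the replicate block on libraries 1 to 3 of each group, 11 were lower and 1 higher, and Fermt2, Itga2, Itgb8 and Parva missed the threshold while Vcl, Tln1 and Tln2 passed. Same-numbered libraries did not deviate together (r = 0.045, 0.002 and -0.05). Such values cannot show whether the numbers pair the samples, which the labels do not say.

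Signs turned for 10 genes, among them Itga2 and Parva, called lower at -0.34 and -0.23, and Tln2, at -0.51 without a call. With the length and GC correction, the log2 fold change became 0.09 for Itga11, 0.00 for Itga2, 0.06 for Parva, 0.11 for Ptk2 and 0.11 for Tns3. The length correction gave 0.15 for Itga11, 0.01 for Itga5, 0.02 for Parva, 0.06 for Ptk2 and 0.14 for Tns3. The replicate block with the length and GC correction gave 0.07 for Itga11, 0.00 for Itga2, -0.06 for Itgb2, 0.07 for Parva, 0.10 for Ptk2, -0.03 for Pxn and 0.10 for Tns3. The replicate block alone gave -0.01 for Itgb2 and -0.03 for Pxn, and the same 6 libraries without it gave -0.05 and -0.03. KO library 1 alone gave 0.12 for Itga11, -0.02 for Pxn, 0.02 for Tln2 and 0.13 for Tns3. Library totals alone gave 0.01 for Itga11 and 0.01 for Itgb5, and voom 0.03 for Itgb5. Leaving out 1 library gave -0.10 to 0.04 for Itga11, -0.05 to 0.38 for Itgb2, -0.11 to 0.03 for Itgb5 and -0.03 to 0.09 for Pxn.

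Over all genes, 2460 lower and 2128 higher calls became 995 and 662 without KO library 3, 1631 and 1363 without WT library 3, and 1240 and 1190 with the block and correction together. The lower calls became 1538 with the length correction. The higher calls became 1228 with the replicate block, 1271 with the same 6 libraries and without WT library 4, and 3331 without KO library 1. No setting moved the median log2 fold change of all genes by more than 0.05. Levels per kilobase by the longest transcript moved by more than the WT SD for 26 of 34 genes. Depth limits Itga2b, Itga4, Itga10, Itgb2, Itgb4 and Ilk, all under 80 counts in each library.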
